A study of Caenorhabditis elegans with 6 samples.

Results

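The X chromosome carried 6015 of the 46904 genes in the count tables, and 2663 of these had at least 10 reads in at least 2 of the 6 libraries. These 2663 X-linked genes are described here beside the 15758 genes on chromosomes I to V that met the same minimum. The other 3352 X-linked genes fell below it. RNA-seq had been done on whole, untreated L1 larvae, the first larval stage, raised on E. coli on NGM plates. The *csb-1* strain RB1801 carries the allele ok2335 in a gene needed for transcription-coupled repair of UV damage, the *xpc-1* strain TG2226 carries the allele tm3886 in a damage sensor of global repair, and the wild-type strain is N2. Each strain had 2 libraries, and each mutant is represented by 1 line. No library came from UV-treated animals, so the comparisons concern the undamaged state of the 3 strains. The labels do not say that replicates came from separate cultures, so the p-values measure the spread between these libraries, which may be technical.

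*C. elegans* hermaphrodites are XX and males XO. In the early embryo a set of X-linked genes called X-signal elements reports the number of X chromosomes by repressing the switch gene *xol-1*. In XX animals the dosage compensation complex then binds both X chromosomes and lowers their transcription. In germ cells the X chromosomes are largely silent, so X-linked transcripts of a whole larva come mainly from its somatic tissues. The chromosome is also known for its many neuronal and muscle genes.

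Of the 2663 X-linked genes, 2411 were annotated as protein-coding, which is 90.5%, against 91.1% of the autosomal genes. The rest comprised 107 ncRNA, 89 pseudogenes, 21 lincRNA, 9 snoRNA, 4 miRNA, 3 antisense RNA and 1 piRNA genes, and 18 had no type. The libraries had been enriched for poly(A), so the short RNAs are not measured reliably. The X-linked genes were longer: the median distance from start to end was 2559 bases on X and 2055 bases on the autosomes, and the median summed exon length was 1252 and 1161 bases. The plus strand held 1358 of them.

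The libraries held 41643033 to 48371365 reads on genes. The 2 *csb-1* libraries stood far apart from each other. Between them 51.1% of X-linked genes differed more than 2-fold and 45.1% of autosomal genes did, whereas the shares were 0.976% and 0.920% between the *xpc-1* libraries and 1.24% and 1.04% between the wild-type libraries. Across X-linked genes, which are not independent replicates, Spearman's correlation of TPM between replicates was 0.644 in *csb-1*, 0.985 in *xpc-1* and 0.986 in wild-type. TPM is the read count per exon length, scaled to the same sum in every library. No pair of replicates was alike within counting error. Because whole larvae were sampled, fewer cells of a type and less RNA per cell cannot be told apart. Where levels of single genes in *csb-1* or *xpc-1* are printed, they are therefore given per library.

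The targeted gene *csb-1* (WBGene00000803) is itself X-linked, on the minus strand of chromosome X from 15861294 to 15865918 in WBcel235. It had 8.70 and 1.86 TPM in *csb-1*, 13.0 and 12.7 TPM in *xpc-1*, and 8.66 and 9.59 TPM in wild-type. *csb-1* replicate 1 thus lay between the wild-type libraries on this scale and replicate 2 below both. On the scale of the test the log2 difference of *csb-1* from wild-type was -0.77 (standard error 0.54, adjusted p = 0.996, edgeR's quasi-likelihood test). Without *csb-1* replicate 1 it was -1.43 and without *csb-1* replicate 2 it was -0.30. Counts summed over a gene cannot show a deletion of part of it, so this does not test the allele. In *xpc-1* both libraries were above both wild-type libraries, and the difference was 0.41 (standard error 0.12, adjusted p = 0.0203). That call was lost when any 1 of the 4 libraries was left out, with adjusted p between 0.0638 and 0.135.

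X-linked genes took 14.8% and 11.2% of the reads in the *csb-1* libraries, 13.6% and 13.9% in the *xpc-1* libraries, and 13.4% and 13.6% in the wild-type libraries. They made up 14.5% of the genes past the minimum. The *csb-1* libraries lay on opposite sides of the other 4, with replicate 1 highest and replicate 2 lowest of all. The mean share was 13.0 ± 2.53% in *csb-1*, 13.8 ± 0.242% in *xpc-1* and 13.5 ± 0.172% in wild-type (SD, n = 2 each). The difference from wild-type was -0.52 percentage points in *csb-1* (two-sided exact permutation p = 1.00) and 0.26 in *xpc-1* (exact permutation p = 0.667). With 2 libraries against 2, no two-sided p below 0.33 can be reached, and over the 5 such tests of shares and shifts every adjusted p was 1.00. Without *csb-1* replicate 2 the *csb-1* difference was 1.27 points, and without *csb-1* replicate 1 it was -2.31 points. Measured as a share of summed TPM, X-linked genes held 12.2% and 8.49% in *csb-1*, 11.1% and 11.3% in *xpc-1*, and 10.8% and 11.0% in wild-type.

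Genes for cytosolic ribosomal proteins are nearly all autosomal: 2 of 78 in the genome lie on X, whereas X holds 13.6% of all protein-coding genes. This class took 4.65% and 23.4% of the reads in *csb-1*, 7.70% and 8.23% in *xpc-1*, and 10.8% and 11.0% in wild-type. It ran opposite to the X share between the *csb-1* libraries. With ribosomal protein genes left out of numerator and denominator, the X share was 15.4% and 13.9% in *csb-1*, 14.5% and 15.0% in *xpc-1*, and 14.7% and 15.0% in wild-type. The gap between the *csb-1* libraries was smaller on this scale, and the *xpc-1* difference turned to -0.12 points.

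The X-linked genes whose share of the reads moved most in *csb-1* were picked out after their values were seen. In *csb-1* replicate 1 the largest gains over the wild-type mean were *pdi-2*, a protein disulfide isomerase, with 0.196 points and *hsp-3*, an endoplasmic reticulum chaperone, with 0.146 points. *hbl-1*, a zinc-finger gene of developmental timing, gained 0.095 points and *his-24*, a linker histone, 0.070 points in the same library. In *csb-1* replicate 2 the largest gains were *rpl-11.2* with 0.229 points, *asp-3* with 0.164 and *spp-14* with 0.145. *hbl-1* and *his-24* lost 0.040 and 0.017 points there. *pdi-2* and *hsp-3* were above both wild-type libraries in both *csb-1* libraries and in both *xpc-1* libraries.

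The median X-linked gene had 12.1 and 4.87 TPM in *csb-1*, 12.4 and 12.4 TPM in *xpc-1*, and 11.8 and 11.7 TPM in wild-type. *csb-1* replicate 2 alone was far below the rest. The median autosomal gene was low there as well: it had 12.4 and 5.13 TPM in *csb-1*, 12.6 and 12.1 TPM in *xpc-1*, and 11.6 and 11.0 TPM in wild-type. In *csb-1* replicate 2, 139 X-linked genes had no read, which is 5.22% of them, against 7.16% of autosomal genes. The other libraries had between 14 and 47 X-linked genes without a read.

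The shift of X against the autosomes was taken per library as the median log2(TPM + 0.1) of X-linked genes minus that of autosomal genes. It was -0.033 and -0.073 in *csb-1*, -0.025 and 0.032 in *xpc-1*, and 0.025 and 0.083 in wild-type. Both *csb-1* libraries lay below both wild-type libraries, and the *xpc-1* libraries overlapped them. The overlap was lost under other settings, such as protein-coding genes only (-0.061 and 0.015 in *xpc-1*, 0.054 and 0.093 in wild-type). With all genes past the minimum, the difference from wild-type was -0.11 for *csb-1* (exact permutation p = 0.33, the smallest possible) and -0.050 for *xpc-1* (exact permutation p = 0.667). Over all 6 libraries the mean shift was 0.0014, with 3 libraries below 0 and 3 above (exact sign-flip permutation test, two-sided p = 0.938).

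This near-zero shift joined 2 opposite features of the distribution. At the lower quartile X-linked genes stood higher than autosomal ones in every library, with 2.44 and 0.766 TPM in *csb-1*, 2.84 and 2.84 in *xpc-1*, and 3.05 and 2.94 in wild-type, against autosomal values of 1.64 and 0.540, 2.06 and 1.94, and 2.03 and 1.92 TPM in the same order. At the upper quartile they stood lower in every library, with 33.3 and 34.1 TPM on X and 36.7 and 35.9 TPM on the autosomes in wild-type. By mean wild-type TPM, 11.6% of X-linked genes were under 1 TPM, against 16.6% of autosomal genes. At the other end 11 X-linked genes reached 1000 TPM, which is 0.413%, against 130 autosomal genes or 0.825%. The statistic used therefore set the sign. Among genes with a mean of at least 1 TPM the shift was -0.27, below 0 in 6 of 6 libraries. With the mean in place of the median it was 0.13, above 0 in 6 of 6 (exact sign-flip permutation p = 0.031 for each, unadjusted, the smallest possible). All 6 libraries measure the same genes, so these p-values show only that the sign recurs between libraries. The 1 TPM minimum also bears more on the autosomes, where a larger share of genes lies under 1 TPM in wild-type.

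**Figure D1:**
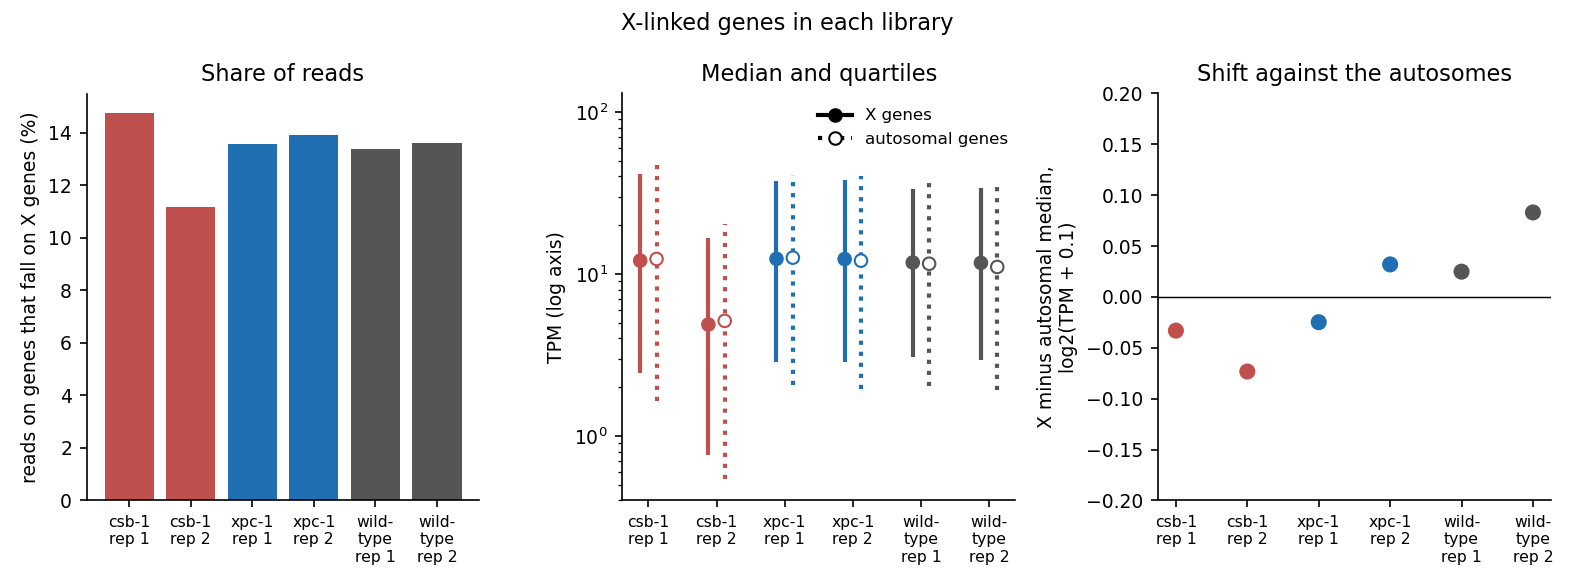
Bars give the percent of reads on X-linked genes, circles with vertical lines give the median and the quartiles of TPM on a log axis for X-linked (filled, solid) and autosomal (open, dotted) genes, and points give the shift of X against the autosomes, for each of the 6 libraries. The share is 14.8% and 11.2% in the csb-1 libraries and between 13.4% and 13.9% in the other 4, and the shift lies between -0.073 and 0.083 on the log2 scale.

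Compared with single chromosomes in wild-type, the X median of 11.8 and 11.7 TPM stood below those of chromosome III (19.7 and 18.8 TPM) and chromosome I (17.5 and 16.8 TPM). It lay close to that of chromosome IV (12.04 and 11.1 TPM), whose libraries overlapped it. It was above those of chromosome II (10.1 and 9.60 TPM) and chromosome V (6.06 and 5.85 TPM).

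The 10 most abundant X-linked genes in wild-type included genes of translation and of muscle. These 10 genes held 5.95% and 17.2% of X-linked reads in *csb-1*, 8.47% and 8.86% in *xpc-1*, and 10.8% and 11.2% in wild-type. *rpl-11.2*, a ribosomal protein gene, had 1336 and 5898 TPM in *csb-1*, 2269 and 2662 TPM in *xpc-1*, and 2898 and 3573 TPM in wild-type. *eef-1A.2*, a translation elongation factor, had 1610 and 2010 TPM in *csb-1*, 1706 and 1940 in *xpc-1*, and 2023 and 2459 in wild-type. Both genes were below both wild-type libraries in both *xpc-1* libraries. They fell in *xpc-1*, with log2 fold changes of -0.47 and -0.38 (standard errors 0.13 each, adjusted p = 0.0209 and 0.0439 by edgeR). The muscle myosin light chains *mlc-2* and *mlc-1* and the troponin T gene *mup-2* fell there too, with log2 fold changes of -0.55, -0.40 and -0.38. With 1 of the 4 libraries left out, *eef-1A.2* lost its call each time (adjusted p between 0.0832 and 0.355) and so did *mup-2* (0.0758 to 0.146), *rpl-11.2* kept it only without *xpc-1* replicate 2, and *mlc-1* and *mlc-2* kept it only without *xpc-1* replicate 1. The actin gene *act-4* had 1986 and 2341 TPM in *xpc-1* and 1800 and 2338 TPM in wild-type and did not pass the test (log2 difference -0.01, adjusted p = 0.953). *rpl-11.2*, *rpl-25.1*, *eef-1A.2*, *mlc-1*, *mlc-2* and *act-4* have close copies elsewhere in the genome, so the assignment of their reads is uncertain, and *mlc-2* shares 12.7% of its exon length with another gene.

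The sharpest contrast among these 10 was *spp-14*, which encodes a saposin-like protein. It had 112 and 5067 TPM in *csb-1*, 609 and 618 TPM in *xpc-1*, and 1416 and 1212 TPM in wild-type. The *csb-1* libraries were on opposite sides of all others, and both *xpc-1* libraries were below both wild-type libraries (log2 fold change -1.18, standard error 0.10, adjusted p = 6.83e-05). The collagen gene *col-166* had the same order, with 195 and 2081 TPM in *csb-1*, 708 and 631 in *xpc-1*, and 1283 and 1165 in wild-type (log2 fold change in *xpc-1* -0.95, standard error 0.10, adjusted p = 0.000163). The ribosomal protein gene *rpl-25.1* fell in *xpc-1* (log2 fold change -0.36, adjusted p = 0.0126), a call lost when any 1 library was left out (0.0741 to 0.147). *ftt-2*, a 14-3-3 protein gene, had 1347 and 1434 TPM in *xpc-1* and 1078 and 1155 TPM in wild-type and missed the threshold (adjusted p = 0.0897). Another abundant collagen gene, *col-165*, picked out after its values were seen, had 1532 and 0.246 TPM in *csb-1*, 1272 and 1303 TPM in *xpc-1*, and 1096 and 1058 TPM in wild-type.

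In *xpc-1*, 521 X-linked genes were higher and 540 lower than in wild-type at an adjusted p under 0.05 (edgeR's quasi-likelihood test on the 4 libraries, Benjamini-Hochberg adjustment over all 18421 genes). Of all genes tested, 19.5% were higher and 16.6% lower. The X-linked shares were 19.6% higher and 20.3% lower, and the autosomal shares 19.5% and 16.0%, so the share of higher genes was close to the background and that of lower genes above it. The median log2 fold change was -0.075 on X, -0.012 on the autosomes and -0.022 over all genes. The changes were moderate: the median size was 0.61 among the higher and -0.69 among the lower X-linked genes. Of them 112 and 106 changed at least 2-fold. These are 4.21% and 3.98% of X-linked genes, against 6.24% and 3.93% of autosomal genes. At that minimum the share of higher genes was thus smaller on X, and that of lower genes was close to the autosomal share. By position of the libraries on the scale of the fit (TMM-scaled CPM, used for all such counts), both *xpc-1* libraries were above both wild-type libraries for 852 X-linked genes, 32.0% against 32.9% of all genes, and below both for 1065, 40.0% against 35.6%. Without wild-type replicate 1 the X-linked count was 152 higher and 136 lower, and without wild-type replicate 2 204 of 323 were higher, so the excess of lower over higher genes on X turned round. It also turned round without *xpc-1* replicate 1, with 432 and 390. The share of lower genes stayed above that of the autosomes, at 5.11% against 3.78%, 4.47% against 3.50% and 14.6% against 12.8% in these fits. In 1 fit of all 6 libraries no X-linked gene passed and 31 had an unadjusted p under 0.05. The coefficient of variation between replicates was 0.147 in the fit of 4 libraries and 0.617 in that of 6.

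Among the autosomes, the share of lower genes ran between 11.4% on chromosome I and 19.4% on chromosome V, so that of X was the highest of the 6 chromosomes in this fit. The share of higher genes ran between 12.8% on V and 24.1% on I, with X between IV and II. The median log2 fold change was lower on V (-0.20) than on X, and it was 0.099 on I, 0.062 on II, 0.047 on III and -0.026 on IV. Genes of a chromosome are not replicates, and no test was made between chromosomes.

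**Figure D2:**
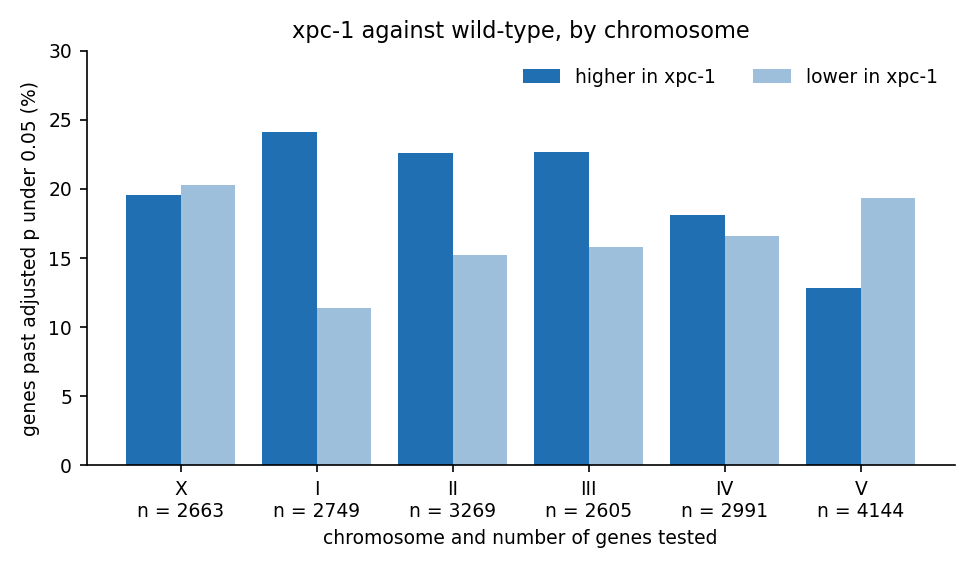
Bars give the percent of the genes tested on each chromosome that were higher (dark) or lower (light) in xpc-1 than in wild-type at an adjusted p under 0.05. On X the shares are 19.6% and 20.3%, on chromosome I 24.1% and 11.4%, and on chromosome V 12.8% and 19.4%.

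The 6 largest increases of X-linked genes in *xpc-1*, among genes with a mean of at least 10 CPM, a read count scaled to library size, ran from 1.87 to 2.25 on the log2 scale. *meg-1*, which encodes a protein of the germline P granules, had 24.1 and 0 TPM in *csb-1*, 15.4 and 14.3 TPM in *xpc-1*, and 2.93 and 2.98 TPM in wild-type (log2 fold change in *xpc-1* 2.25, standard error 0.14, adjusted p = 1.86e-05). *fkh-3*, a forkhead transcription factor gene, had 21.2 and 0 TPM in *csb-1*, 19.5 and 16.1 TPM in *xpc-1*, and 4.25 and 3.37 TPM in wild-type. Its neighbour *fkh-4* had 15.7 and 0 TPM in *csb-1*, 17.5 and 15.8 TPM in *xpc-1*, and 4.35 and 3.86 TPM in wild-type. In these 3 genes *csb-1* replicate 1 was near the *xpc-1* libraries, and *csb-1* replicate 2 held no read. *fkh-3* rose in *xpc-1* by 2.14 and *fkh-4* by 1.94 (adjusted p = 6.36e-05 and 4.92e-05 by edgeR). The homeobox gene *ceh-40* rose by 1.87, *T22B2.1* by 2.16 and *R04D3.2* by 1.92.

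All 8 germline markers examined, none of them X-linked, also passed as higher in *xpc-1*, as 19.5% of all genes did. Like the gene lists below, these markers were chosen with earlier results of these data known. Their summed level was 381 and 132 CPM in *csb-1*, 290 and 288 CPM in *xpc-1*, and 168 and 162 CPM in wild-type, and *nos-2* had no read in *csb-1* replicate 2. Whether they share in the changes of *meg-1* and its companions was not tested.

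The 6 largest decreases in *xpc-1* included 2 genes of FMRFamide-like neuropeptides. *flp-20* had 13.0 and 24.9 TPM in *csb-1*, 34.1 and 33.6 TPM in *xpc-1*, and 96.6 and 70.7 TPM in wild-type, and *flp-7* had 9.01 and 36.2 TPM, 35.0 and 30.4 TPM, and 75.5 and 76.0 TPM in the same strains. For both genes all 4 mutant libraries lay below both wild-type libraries. In *xpc-1* both fell, *flp-20* with -1.38 on the log2 scale (standard error 0.16, adjusted p = 0.000252) and *flp-7* with -1.29 (standard error 0.12, adjusted p = 8.05e-05). *C15B12.8*, for which no role is given here, had 2.67 and 0.782 TPM in *csb-1*, 8.11 and 7.38 TPM in *xpc-1*, and 29.1 and 25.1 TPM in wild-type. Its log2 fold change of -1.89 in *xpc-1* (standard error 0.14, adjusted p = 3.9e-05) was the lowest of any X-linked gene under the same rule.

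The other 3 decreases were of another kind in *csb-1*. *asp-14*, an aspartyl protease gene, had 14.6 and 376 TPM in *csb-1*, 144 and 145 TPM in *xpc-1*, and 342 and 371 TPM in wild-type. *F46F2.3* had 14.1 and 1568 TPM in *csb-1*, 423 and 396 TPM in *xpc-1*, and 1022 and 951 TPM in wild-type. *lbp-2*, a lipid-binding protein gene, had 19.7 and 118 TPM in *csb-1*, 40.3 and 45.6 TPM in *xpc-1*, and 109 and 98.5 TPM in wild-type. In all 3 genes *csb-1* replicate 1 was the lowest library and replicate 2 the highest, and they fell in *xpc-1* with log2 fold changes of -1.38 for *asp-14* and -1.35 for *F46F2.3* and *lbp-2*.

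All 6 of the X-signal and sex-determination genes examined rose in *xpc-1*, where 19.5% of all genes rose. Their median log2 fold change was 1.03, against -0.022 over all genes. This list and those below were chosen with earlier results of these data known. Their counts beside the shares of all genes are therefore descriptive and no independent support. *sex-1*, a nuclear receptor gene that acts as an X-signal element, had 140 and 3.86 TPM in *csb-1*, 90.0 and 96.4 TPM in *xpc-1*, and 37.0 and 39.5 TPM in wild-type (log2 fold change in *xpc-1* 1.21, standard error 0.095, adjusted p = 4.64e-05). *ceh-39*, a homeobox gene of the same group, had 50.5 and 6.72 TPM in *csb-1*, 41 and 44.1 TPM in *xpc-1*, and 15.3 and 17.7 TPM in wild-type. *fox-1*, an RNA-binding X-signal element, had 122 and 24.8 TPM in *csb-1*, 86.0 and 109 TPM in *xpc-1*, and 52.3 and 66.1 TPM in wild-type. In every one of the 6 genes *csb-1* replicate 1 was above and replicate 2 below both wild-type libraries, and both *xpc-1* libraries lay above both. The call for *fox-1* was lost without either wild-type library (adjusted p between 0.0729 and 0.178).

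*xol-1*, the switch gene that these elements repress, was the least abundant of the 6. It had 3.08 and 0.107 TPM in *csb-1*, 2.42 and 2.21 TPM in *xpc-1*, and 0.982 and 0.781 TPM in wild-type, and rose in *xpc-1* by 1.31 (standard error 0.27, adjusted p = 0.00481). *sdc-2*, which is needed to bring the dosage compensation complex to X, had 27.2 and 4.72 TPM in *csb-1*, 19.1 and 17.1 TPM in *xpc-1*, and 11.8 and 10.9 TPM in wild-type, and rose in *xpc-1* by 0.60 (standard error 0.093, adjusted p = 0.0012). It shares 12.8% of its exon length with another gene. Without either wild-type library *xol-1* (adjusted p between 0.0583 and 0.0743) and *sdc-2* (0.0507 to 0.0593) lost their calls. *xol-1* and its X-linked repressors thus stood higher together in *xpc-1*. Of the 2 markers of XO animals, *xol-1* and the autosomal *her-1*, the summed level was 8.86 and 1.08 CPM in *csb-1*, 7.59 and 6.09 CPM in *xpc-1*, and 3.04 and 2.80 CPM in wild-type, and whether XO animals had a part in these changes was not tested.

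**Figure D3:**
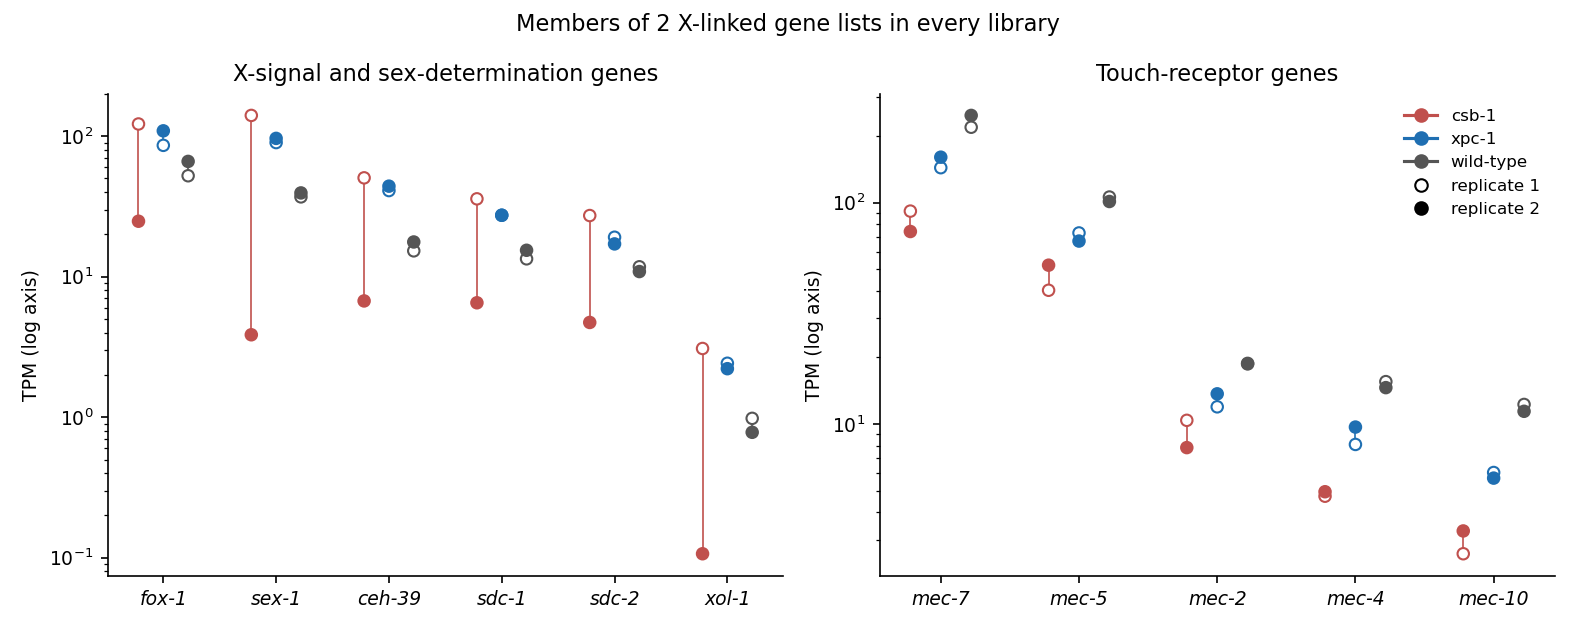
Each point is the TPM of 1 gene in 1 library on a log axis (open, replicate 1; filled, replicate 2), with csb-1, xpc-1 and wild-type side by side and lines joining replicates. In the X-signal and sex-determination genes csb-1 replicates 1 and 2 lie on opposite sides of wild-type and xpc-1 above it. In the 5 touch-receptor genes all 4 mutant libraries lie below wild-type. Both lists were chosen with earlier results of these data known.

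All 5 touch-receptor genes examined, which serve the neurons that sense gentle touch, fell in *xpc-1*, with a median of -0.70. Of all genes 16.6% fell, but this list too was chosen with earlier results of these data known. *mec-7*, a tubulin gene, had 91.6 and 74.1 TPM in *csb-1*, 144 and 160 TPM in *xpc-1*, and 219 and 248 TPM in wild-type (log2 fold change in *xpc-1* -0.70, standard error 0.10, adjusted p = 0.000998). *mec-10*, a subunit of the touch-sensitive channel, had 2.60 and 3.29 TPM in *csb-1*, 6.05 and 5.70 TPM in *xpc-1*, and 12.3 and 11.4 TPM in wild-type (log2 fold change in *xpc-1* -1.09, standard error 0.13, adjusted p = 0.000322). *mec-2*, which encodes a stomatin-like partner of that channel, had the smallest decrease, -0.62 (standard error 0.10, adjusted p = 0.00157). For all 5 genes both *csb-1* libraries also lay below both wild-type libraries, as they did for 19.5% of all genes. None of the 5 passed the test in *csb-1* (adjusted p = 0.996). In *xpc-1* the call for *mec-2* was lost without either wild-type library (0.0615 to 0.0657) and that for *mec-7* without wild-type replicate 2 (0.0570).

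Of 16 further neuronal genes, 9 fell and 1 rose in *xpc-1*, where 16.6% of all genes fell and 19.5% rose, with a median of -0.40. *unc-1*, a stomatin-like gene of locomotion, was the most abundant, with 129 and 69.9 TPM in *csb-1*, 141 and 147 TPM in *xpc-1*, and 177 and 193 TPM in wild-type, and fell in *xpc-1* (log2 fold change -0.44, standard error 0.092, adjusted p = 0.0053). *npr-1*, a neuropeptide receptor gene, fell to 2.08 and 1.61 TPM in *xpc-1*, against 4.55 and 4.92 TPM in wild-type (log2 fold change -1.44, standard error 0.25, adjusted p = 0.002). The gene that rose was *unc-6*, the netrin guidance cue, which had 95.8 and 12.6 TPM in *csb-1*, 62.2 and 68.5 TPM in *xpc-1*, and 41.1 and 47.4 TPM in wild-type. It rose by 0.48 (adjusted p = 0.00649). The calls for *unc-1* and *npr-1* did not pass without either wild-type library (0.0508 to 0.0806 and 0.0575 to 0.0653). *odr-7*, a nuclear receptor gene of an olfactory neuron, was near 1 TPM in all strains except *csb-1* replicate 2 and did not pass the test.

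X, which holds 13.6% of all protein-coding genes, held 13 of 31 genes of the FMRFamide-like *flp* family (41.9%) and 19 of 71 of the *nlp* family (26.8%). In *xpc-1*, 10 of the 13 measured *flp* genes fell and none rose, with a median of -0.85, and 13 of 17 measured *nlp* genes fell and none rose, with a median of -0.67. The share of lower genes over all genes was 16.6%. In *csb-1*, 11 of the 13 *flp* genes were below wild-type in replicate 1 and above it in replicate 2, a pattern that 23.8% of all genes had. Beside these groups, 5 of 8 neuron markers passed as lower and 1 as higher in *xpc-1*, and the 8 summed to 768 and 1042 CPM in *csb-1*, 922 and 968 CPM in *xpc-1*, and 1305 and 1296 CPM in wild-type. None of these markers is X-linked, none was without reads, and their part in the result was not tested.

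Of 9 muscle genes on X, 5 fell and 1 rose in *xpc-1*, against 16.6% and 19.5% of all genes, with a median of -0.32. *sup-10*, a regulator of a muscle potassium channel, had 7.60 and 5.51 TPM in *csb-1*, 8.48 and 9.24 TPM in *xpc-1*, and 16.8 and 16.0 TPM in wild-type, and fell in *xpc-1* (log2 fold change -0.97, standard error 0.15, adjusted p = 0.001). *lev-8*, an acetylcholine receptor subunit gene, rose by 0.61 (standard error 0.14, adjusted p = 0.00933), which held only without *xpc-1* replicate 1 among the fits with 1 library left out (0.0799 to 0.112 in the others). *myo-2*, the myosin of pharyngeal muscle, had 77.8 and 314 TPM in *csb-1*, 131 and 133 TPM in *xpc-1*, and 182 and 205 TPM in wild-type, and fell in *xpc-1* (log2 fold change -0.63, standard error 0.10, adjusted p = 0.00131). Of the markers of body wall muscle 4 of 5 passed as lower in *xpc-1*, with sums of 3975 and 5219 CPM in *csb-1*, 5704 and 5942 CPM in *xpc-1*, and 7838 and 8486 CPM in wild-type. Of those of the pharynx 3 of 5 passed as lower and 1 as higher.

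Of 7 cuticle and body-size genes, 3 rose and 2 fell in *xpc-1*, against 19.5% and 16.6% of all genes. The furrow collagen *dpy-3* had 457 and 0.181 TPM in *csb-1*, 242 and 280 TPM in *xpc-1*, and 113 and 126 TPM in wild-type, and rose in *xpc-1* by 1.05 (standard error 0.11, adjusted p = 0.000157). The collagen *dpy-7* showed the same order, with 431 and 0.0363 TPM in *csb-1*, 237 and 251 TPM in *xpc-1*, and 119.1 and 111 TPM in wild-type. The mucin-like gene *dpy-6* ran the other way, with 0.570 and 13.4 TPM in *csb-1*, 4.60 and 3.35 TPM in *xpc-1*, and 8.20 and 8.79 TPM in wild-type, and fell in *xpc-1* (log2 fold change -1.18, standard error 0.16, adjusted p = 0.000558, but 0.0532 to 0.0615 without either wild-type library). *let-2*, a basement membrane collagen and the most abundant of the 7, did not pass (log2 difference 0.13, adjusted p = 0.473). The 6 epidermis markers, 3 of them X-linked and *dpy-7* among them, summed to 1251 and 145 CPM in *csb-1*, 817 and 860 CPM in *xpc-1*, and 584 and 567 CPM in wild-type, and 3 of the 6 passed as higher and 1 as lower in *xpc-1*. Of 20 measured genes of the *col* collagen family on X, 8 fell and none rose.

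Of 10 measured genes of developmental timing and vulva formation, 2 rose and 3 fell in *xpc-1*, near the 19.5% and 16.6% of all genes. *lin-14*, which sets the fates of the first larval stage, had 208 and 79.5 TPM in *csb-1*, 171 and 152 TPM in *xpc-1*, and 196 and 183 TPM in wild-type, and fell in *xpc-1* (log2 fold change -0.31, standard error 0.093, adjusted p = 0.0275). *lin-15A*, a repressor of vulval fates, had 46.6 and 8.74 TPM in *csb-1*, 38.0 and 40.4 TPM in *xpc-1*, and 20.9 and 22.1 TPM in wild-type, and rose by 0.79 (standard error 0.10, adjusted p = 0.00041). It overlaps its neighbour *lin-15B*, which also rose, at 5 bases. *lin-18*, a Wnt receptor gene, fell (log2 fold change -0.50, adjusted p = 0.0142). With 1 library left out the call for *lin-14* was lost each time (0.0755 to 0.259), and that for *lin-18* held only without *xpc-1* replicate 2.

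Of 6 intestinal and metabolic genes, 3 fell and 1 rose in *xpc-1*, against 16.6% and 19.5% of all genes. *asp-3*, an aspartyl protease gene, had 171 and 1629 TPM in *csb-1*, 337 and 371 TPM in *xpc-1*, and 526 and 605 TPM in wild-type, and fell in *xpc-1* (log2 fold change -0.75, standard error 0.11, adjusted p = 0.000766). Its relative *asp-4* had 247 and 72.8 TPM in *csb-1*, 150 and 151 TPM in *xpc-1*, and 106 and 103 TPM in wild-type, and rose by 0.45 (standard error 0.086, adjusted p = 0.00317). The 2 proteases thus moved in opposite directions in *xpc-1*. The call for *asp-4* was lost without either wild-type library (0.0563 to 0.0593). In *csb-1* replicate 2 *asp-4* was below wild-type by TPM but above it by TMM-scaled CPM, with 141 against 113 and 109. The GATA factor gene *elt-4* had 2.57 and 4.57 TPM in *xpc-1* and 7.35 and 4.10 TPM in wild-type and did not pass (adjusted p = 0.241). Intestine markers summed to 747 and 3419 CPM in *csb-1*, 1018 and 1110 CPM in *xpc-1*, and 1508 and 1636 CPM in wild-type. Of the 6, 3 passed as lower and 0 as higher in *xpc-1*. The sums came mostly from *act-5*, *ifb-2* and *vha-6*, and *elt-2* and *elt-7* ran the other way. *elt-7* had 15.6 and 8.04 CPM in *csb-1*, 13.8 and 11.1 CPM in *xpc-1*, and 9.61 and 9.06 CPM in wild-type. For *ges-1* the *xpc-1* libraries lay between the wild-type libraries.

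The yolk genes *vit-1* to *vit-5*, which adult hermaphrodites express in the intestine, were all X-linked and near the bottom of the range. *vit-1* had 2.06 and 0.077 TPM in *csb-1*, 1.27 and 1.68 TPM in *xpc-1*, and 1.43 and 1.40 TPM in wild-type. The other 4 were below 0.25 TPM in every library, *vit-4* had no read in *csb-1* replicate 1, and none of the 5 passed the test. These genes are close copies of one another, so the split of reads between them is uncertain.

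Against 16.6% of all genes that fell and 19.5% that rose in *xpc-1*, of 22 measured nuclear hormone receptor (*nhr*) genes 6 fell and 1 rose, of 10 *twk* potassium channel genes 4 fell, of 8 astacin protease (*nas*) genes 2 fell, of 6 *acr* acetylcholine receptor genes 2 fell, and none of 3 *vha* proton pump genes passed. The chromosome held 23 of the 269 *nhr* genes, or 8.55%.

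**Figure D4:**
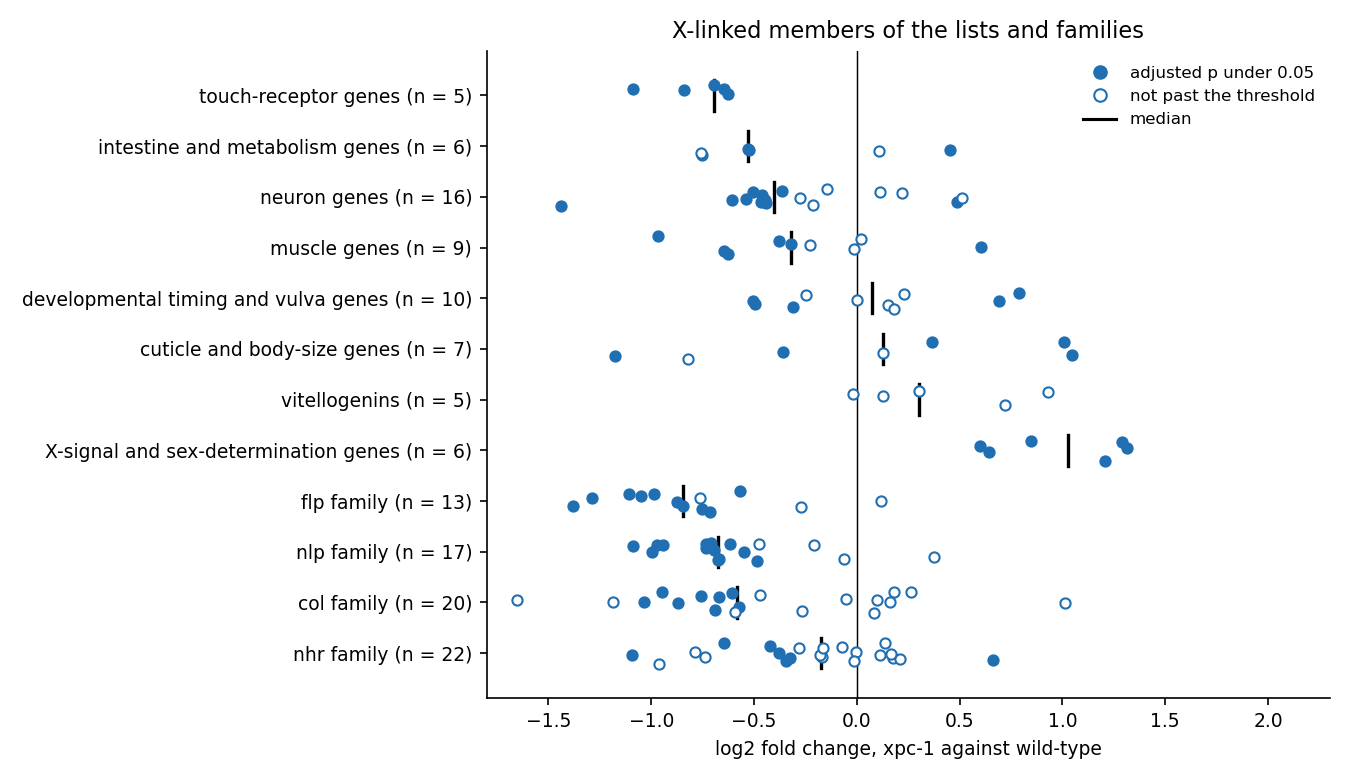
Each point is the log2 fold change of 1 X-linked gene in xpc-1 against wild-type, filled where the adjusted p was under 0.05, grouped by list or family, and black bars give the medians. The X-signal genes lie at a median of 1.03, the touch-receptor genes at -0.70, the flp genes at -0.85 and the nlp genes at -0.67. The lists were chosen with earlier results of these data known.

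In *csb-1* no X-linked gene passed the test, and 0% of all genes did (edgeR's quasi-likelihood test on the 4 libraries). At an unadjusted p under 0.05 there were 58, or 2.18% of X-linked genes, against 2.78% of all genes. DESeq2 called 4 X-linked genes, all lower, namely *C15B12.8*, the acyltransferase-like gene *oac-14*, *C45B2.3* and *H06A10.1*. These are 0.150% of X-linked genes. DESeq2 called 52 autosomal genes, or 0.330%, and 51 of these were lower. In the edgeR fit the median log2 difference was 0.041 on X, 0.155 on the autosomes and 0.136 over all genes. Its sign on X depended on the scaling, since with library size alone it was -0.19 on X and -0.083 on the autosomes, but X lay below the autosomes under both. With 1 *csb-1* library left out, the fit assumes the lone *csb-1* library to vary like the wild-type pair, so its calls are not counted here. The median log2 difference was then -0.26 on X and -0.097 on the autosomes without *csb-1* replicate 1. Without *csb-1* replicate 2 it was -0.15 and -0.061.

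The 2 *csb-1* libraries moved in opposite directions for more X-linked genes than they moved together. Replicate 1 was above and replicate 2 below both wild-type libraries for 790 genes, 29.7% against 25% of all genes. Replicate 1 was below and replicate 2 above for 656 genes, 24.6% against 23.8%. Both were above for 198 genes, 7.44% against 13.3%, and both below for 557, 20.9% against 19.5%. X-linked genes that were higher in both *csb-1* libraries were thus fewer than in the background, and 14.3% of autosomal genes had that pattern. No test was made of this difference, since genes are not replicates.

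Among X-linked genes of at least 10 CPM with both *csb-1* libraries above wild-type, the largest log2 differences were those of *nuc-1*, *cpr-6* and *pdi-2*. *nuc-1*, a lysosomal nuclease, had 76.0 and 57.4 TPM in *csb-1*, 50.5 and 50.0 TPM in *xpc-1*, and 27.6 and 29.1 TPM in wild-type. *cpr-6*, a cathepsin B-like protease gene, had 158 and 116 TPM in *csb-1*, 101 and 101 TPM in *xpc-1*, and 70.9 and 66.3 TPM in wild-type. *pdi-2* had 2616 and 1086 TPM in *csb-1*, 1580 and 1691 TPM in *xpc-1*, and 871 and 959 TPM in wild-type. The log2 differences in *csb-1* were 1.57, 1.33 and 1.19, with adjusted p = 0.996 for each, and the same 3 genes rose in *xpc-1* by 0.75, 0.48 and 0.76 (adjusted p = 0.000612, 0.00299 and 0.00061). The *cpr-6* call was lost without either wild-type library (0.0522 to 0.0624) and the *pdi-2* call without wild-type replicate 1 (0.0507). The transporter gene *mrp-4* and *ZC449.5* and *ergi-1* followed in *csb-1*, with 1.17, 1.16 and 1.13. The *csb-1* and *xpc-1* comparisons share their wild-type libraries.

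Among those of at least 10 CPM with both *csb-1* libraries below wild-type, *C15B12.8* had the largest difference, -3.88 (standard error 0.51, adjusted p = 0.996). *abu-10*, of a family of glutamine- and asparagine-rich proteins, had 7.64 and 0.616 TPM in *csb-1*, 22.4 and 24.3 TPM in *xpc-1*, and 28.3 and 41.7 TPM in wild-type. *oac-14* had 13.4 and 3.67 TPM in *csb-1*, 28.0 and 32.2 TPM in *xpc-1*, and 56.2 and 53.5 TPM in wild-type. *ZK662.2* had 53.2 and 1.06 TPM in *csb-1*, 84.5 and 88.1 TPM in *xpc-1*, and 126 and 146 TPM in wild-type. In each of these genes *csb-1* replicate 2 was the lowest library and the *xpc-1* libraries lay between *csb-1* and wild-type. *gmap-3* and *jud-4* followed, with log2 differences of -2.65 and -2.58 in *csb-1*.

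Along the chromosome, genes were grouped in 18 windows of 1 Mb by their start, each with 90 to 185 of the X-linked genes. Taken over each gene's mean of the wild-type libraries, the window median was highest from 4 to 5 Mb, at 17.9 TPM over 149 genes, and lowest from 13 to 14 Mb, at 6.26 TPM over 162 genes. These places moved with the window size: with 0.5 Mb they were 2.5 to 3 Mb (21.9 TPM) and 1.5 to 2 Mb (2.58 TPM), and with 2 Mb they were 2 to 4 Mb (17.2 TPM) and 12 to 14 Mb (6.92 TPM). The window from 1 to 2 Mb was also low, with 6.66 and 6.31 TPM in the wild-type libraries, between neighbours at 12.4 and 12.3 TPM and at 17.5 and 18.1 TPM. The same dip was present in *csb-1* (5.28 and 3.04 TPM) and in *xpc-1* (6.31 and 5.48 TPM). The window from 4 to 5 Mb, which holds *act-4*, *rpl-25.1* and *pdi-2*, alone held 9.65% of wild-type X-linked reads, and that from 1 to 2 Mb held 2.19%.

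By larger stretches, the median X-linked gene in wild-type had 14.4 TPM over the first 6 Mb, 11.97 TPM in the middle 6 Mb and 9.36 TPM over the rest. In *csb-1* replicate 2 this decline was absent from the left part, with 5.09 TPM over the first 6 Mb, 5.71 TPM in the middle and 3.88 TPM over the rest. The middle stretch took 37.3% and 43.6% of X-linked reads in *csb-1*, 37.7% and 37.8% in *xpc-1*, and 39.1% and 38.95% in wild-type, so *csb-1* replicate 2 was again apart. This stretch holds *spp-14*, *asp-3*, *col-166* and *eef-1A.2*.

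The *xpc-1* changes were spread over the whole chromosome. Between 29.1% of the tested genes (16 to 17 Mb) and 47.7% (3 to 4 Mb) were called in a window. The window median of the log2 fold change was above 0 in 5 of 18 windows and below the autosomal median of -0.012 in 13. It was highest from 2 to 3 Mb, at 0.13 over 142 genes, and lowest from 8 to 9 Mb, at -0.38 over 158 genes. In that lowest window 28.5% of the genes fell and 17.7% rose, and in the window from 6 to 7 Mb 29.2% fell and 14.6% rose. At the left end, from 1 to 2 Mb, 11.4% fell and 22.9% rose. Over the middle 6 Mb as a whole 234 of 982 genes fell and 165 rose. Over the first 6 Mb 166 of 876 fell and 192 rose, and over the rest 140 of 805 fell and 164 rose. Of all genes tested, 16.6% fell and 19.5% rose. The lowest window stayed at the same place with windows of 0.5 Mb (8.5 to 9 Mb, -0.43) and 2 Mb (8 to 10 Mb, -0.26), but the highest moved to 1.5 to 2 Mb (0.36) and 0 to 2 Mb (0.057).

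**Figure D5:**
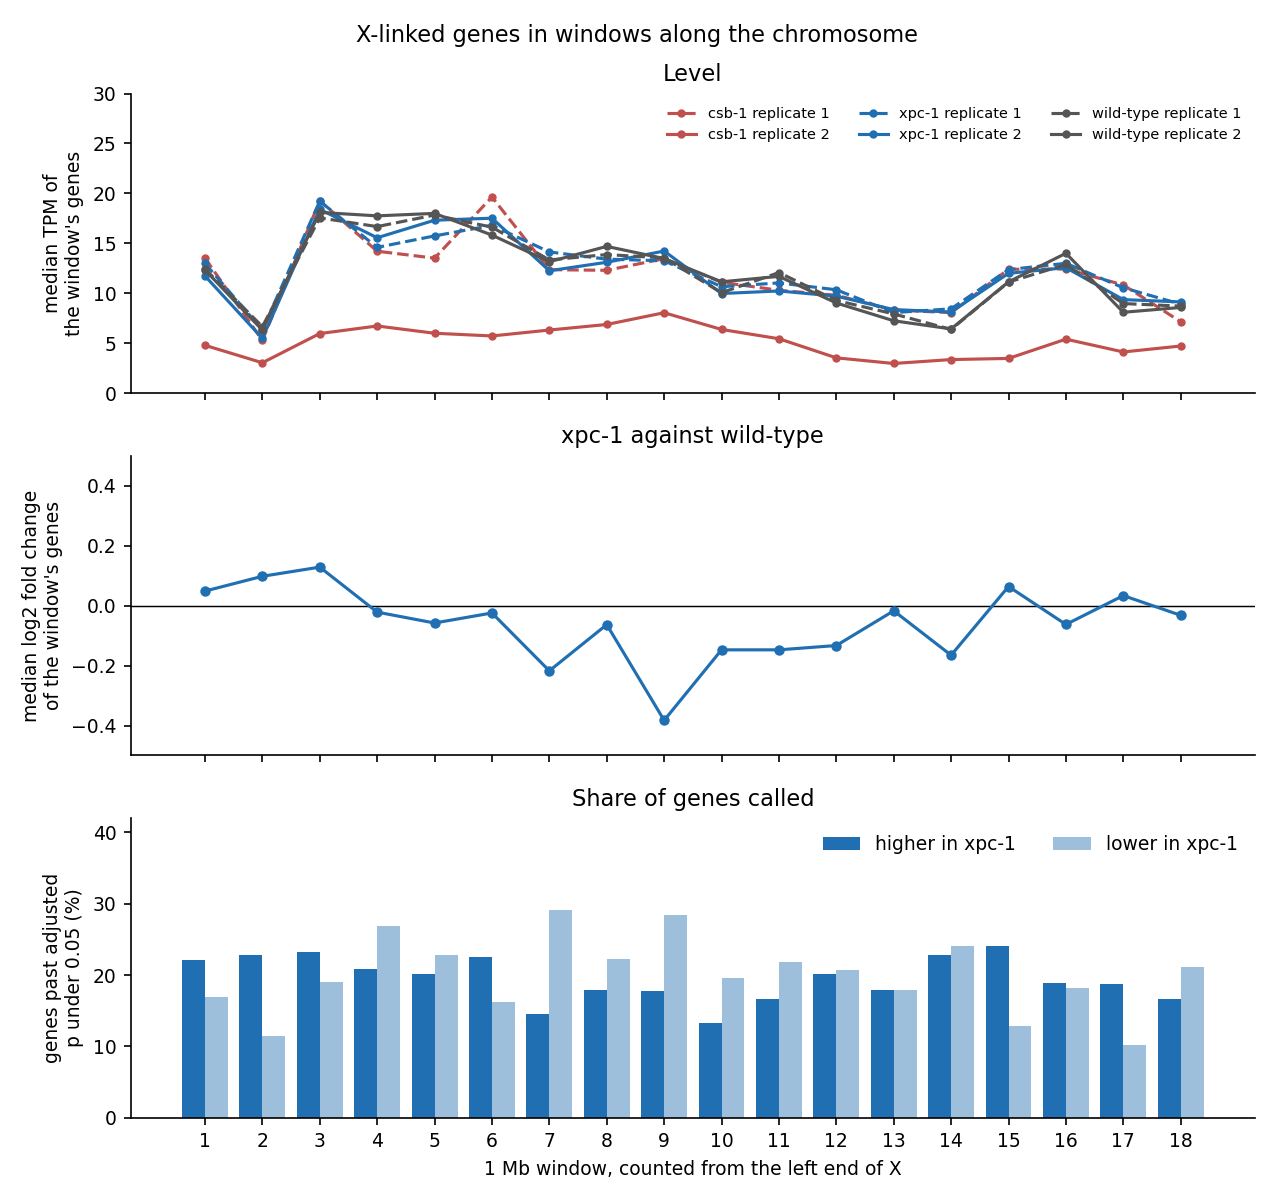
The upper panel gives the median TPM of the genes in each of 18 windows of 1 Mb, numbered from the left end of X, in every library, the middle panel their median log2 fold change in xpc-1 against wild-type, and the lower panel the percent of genes higher (dark) and lower (light) in xpc-1. By the mean of the wild-type libraries the level is highest in window 5 (17.9 TPM), csb-1 replicate 2 lies below all other libraries throughout, and the fold change is lowest in window 9 (-0.38).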

How the data were processed

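RNA from whole L1 larvae was enriched for poly(A) and sequenced as stranded paired-end libraries, 2 for each of *csb-1*, *xpc-1* and wild-type. The authors aligned reads with STAR, kept a mapping quality of at least 30, removed mitochondrial reads and counted reads on exons with featureCounts 2.0.4. The deposited values are raw counts, not normalized. Per the file headers the annotation was Ensembl release 105 of WBcel235, whereas the methods name WS295, and neither strand nor pair counting was set. Both mates were therefore counted, and reads of overlapping genes on opposite strands cannot be told apart. Of 56 named genes 14 share exon bases with another gene. Symbols and gene types came from a names table and Ensembl release 115, where 2553 and 2645 of the 2663 X-linked genes matched.

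TPM were computed from counts and summed exon length over all genes. Marker sums are in CPM by library size. Each mutant was compared with wild-type in a fit of 4 libraries with TMM scaling by edgeR's quasi-likelihood method, and p-values were adjusted over 18421 genes after Benjamini-Hochberg (threshold 0.05). This replaces a fit of 6 libraries, kept as an alternative, whose shared spread is set by *csb-1*. Each standard error was back-calculated from edgeR's test, as the absolute log2 fold change divided by the square root of its F value. Shares and shifts were compared by exact permutation of libraries, in 5 tests. The members and gene lists were chosen with earlier results of these data known. Named genes were *csb-1*, the 10 highest in wild-type TPM, the 6 highest and 6 lowest log2 fold changes per mutant where the mean was at least 10 CPM and wild-type lay wholly above or below the mutant pair, and, per list, the most abundant member and the largest and smallest log2 fold change in *xpc-1*. *let-7* was listed but not found among X-linked genes and was left out. The fits were tested on simulated data in which all libraries varied alike, with a spread close to that of the *xpc-1* fit. The coefficient of variation between replicates was 0.147 in the *xpc-1* fit and 0.734 in the *csb-1* fit. The simulation therefore did not test the *csb-1* fit at its own spread. Python 3.11.15, pandas 2.3.3, scipy 1.17.1, matplotlib 3.10.9, R 4.3.3, edgeR 4.0.16 and DESeq2 1.42.0 were used. No sequences were analysed here.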

Additional observations from a re-analysis of the deposited data

How the results depend on the processing

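The *xpc-1* count of X-linked genes was 1061, or 39.8%, against 35.4% of autosomal genes. DESeq2, the other scalings and the other count filters gave between 995 and 1158, and 1 fit of all 6 libraries 0. With DESeq2, these scalings and these filters the share ran from 28.8% to 47.0% on X and from 26.9% to 42.8% on the autosomes. A 2-fold minimum gave 218, or 8.19% of X-linked genes, against 10.2% of autosomal genes. Leaving out 1 library gave 288 to 834. Under upper-quartile scaling 40.5% of the X-linked calls were higher, against 49.1%. The autosomes moved the same way: 16.3% of their genes were higher and 19.7% lower under this scaling, against 19.5% and 16.0%. In *csb-1* the count stayed 0 except with DESeq2 (4) and when 1 library was left out (0 to 1510). The labels share replicate numbers, but no source says that a number marks a shared batch, and the replicate differences of *csb-1* and *xpc-1* correlated with those of wild-type at -0.0036 and 0.26. With the replicate block the X-linked counts were 0 in *csb-1* and 1377 in *xpc-1*. The 1377 are 51.7% of X-linked genes, against 48.4% of autosomal genes.

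The *csb-1* difference in X share ran from -2.31 to 1.27 points when 1 library was left out, and the *xpc-1* difference from 0.093 to 0.43 points. Without ribosomal protein genes the *xpc-1* difference was -0.12. The *csb-1* shift difference was 0.0039 without a count minimum, and -0.14 to -0.078 with 1 library left out. The *xpc-1* shift difference then ran from -0.079 to -0.021. Both *xpc-1* libraries lay below both wild-type libraries without a count minimum, at a minimum of 1 TPM and for protein-coding genes. They also did so with length from start to end and with the mean. The *csb-1* libraries overlapped wild-type without a count minimum. The shift over all libraries was -0.27 at a minimum of 1 TPM, -0.020 for protein-coding genes, -0.047 with length from start to end and 0.13 with the mean, and -0.015 to 0.016 with 1 library left out. The cause was not tested.

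Of the named genes only values near 0 changed sign. At 10 counts in every library *act-4* in *xpc-1* was 0.0080 and *vit-1* 0.0018. With 1 library left out *act-4* ran from -0.20 to 0.20, *vit-1* from -0.25 to 0.18 and *let-2* from -0.0017 to 0.25. Over all settings 110 values of named genes lost a call, 49 of them in the fit of 6 libraries and many of the rest without 1 wild-type library. Gains were fewer, and most came from fits with 1 *csb-1* library left out, whose calls are not counted here. The other gains were 2 with DESeq2 in *csb-1* and 2 with the replicate block in *xpc-1*. Genes with few reads, such as the yolk genes, are limited by depth.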
